A study of Mus musculus with 21 samples.

Results

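The genes described here drive or execute the cell division cycle. They are 33 genes chosen by name: cyclin D1 of G1 phase, 11 genes of the entry into and passage through S phase, and 21 genes of G2 phase and mitosis. Of all 19057 genes that a probe of the array names, 9961 were tested, and 26 of the 33 were among them: cyclin D1, 10 of the S phase genes and 15 of the mitotic genes. The question asked of them was whether the mRNAs of dividing cells differed with the Prdm1 genotype, and whether S phase and mitotic genes differed alike.

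Total RNA came from the small intestine of mouse embryos at E18.5 on a mixed strain background, with 1 Illumina WG6_V2 bead array for each of 11 embryos labelled Prdm1+/+ (genotype Prdm1CA/+) and 10 labelled Prdm1-/- (Villin-Cre, Prdm1CA/BEH). All embryos carried the CA allele from dams that were homozygous for it and also carried R26R, and the Villin-Cre transgene and the BEH allele came with the mutant label alone, so their effects cannot be told apart. Villin-Cre acts in the intestinal epithelium, while the RNA is that of the whole organ. Prdm1 encodes Blimp1, a zinc finger protein that represses transcription. Of its 2 probes, 1 was not detected on any array. The other was not detected on any control array and had a signal at least 7.31-fold higher in labelled mutants (limma adjusted p = 1.64e-12), which does not check the deletion, since it is not known here whether that probe lies in the deleted sequence. Hence the wording labelled controls and labelled mutants, on which every direction rests.

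In the fetal intestine, dividing epithelial cells lie in the intervillus regions between the villi, and the cells that cover the villi have left the cycle. Cyclin D and cyclin E kinases release the E2F factors, which switch on the genes of DNA replication: the Mcm helicase, the clamp PCNA, and the enzymes that supply deoxynucleotides. After S phase, the kinase Cdk1 with cyclins A and B drives the cell into mitosis, the Aurora and Polo kinases and the kinesins build and use the spindle, and the anaphase-promoting complex ends the division. The genes of this later wave share promoter elements, namely CCAAT boxes, bound by NF-Y, and the cell cycle genes homology region (CHR), bound by complexes that hold them off in resting cells. In mRNA from a whole organ, fewer cells of a kind and less mRNA per cell cannot be told apart.

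Promoters of 3 S phase and 3 mitotic members are printed as picked examples of letters that can differ between the phases. Each is the 160 bases upstream of the transcription start, read 5′ to 3′ along the gene, from the RefSeq promoter table of build GRCm38.p6. Capitals mark 3 kinds of letters on either strand. The CCAAT box reads ATTGG where it lies on the other strand. The CHR was searched as TTTGAA, which reads in reverse as TTCAAA, and as its palindromic variant TTCGAA. For E2F the letters TTTGGCGC were searched, which read in reverse as GCGCCAAA, and also TTCCCGC together with its longer form TTTCCCGC, which contains it. The S phase members shown are subunits of the helicase.
Mcm5, chr8:75109349-75109508, plus strand: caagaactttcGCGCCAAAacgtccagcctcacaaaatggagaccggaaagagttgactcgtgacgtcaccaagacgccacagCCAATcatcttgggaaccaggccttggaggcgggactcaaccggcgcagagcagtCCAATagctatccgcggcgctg
Mcm6, chr1:128359706-128359865, minus strand: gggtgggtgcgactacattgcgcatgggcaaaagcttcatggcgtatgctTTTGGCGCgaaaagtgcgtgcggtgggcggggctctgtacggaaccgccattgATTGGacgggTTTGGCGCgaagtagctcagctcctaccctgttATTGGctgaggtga
Mcm2, chr6:88898781-88898940, minus strand: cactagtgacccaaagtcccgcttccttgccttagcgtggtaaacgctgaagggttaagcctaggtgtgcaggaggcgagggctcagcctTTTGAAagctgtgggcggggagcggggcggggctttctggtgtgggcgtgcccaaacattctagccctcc
The mitotic members are the kinase Cdk1, Cdc20, which activates the anaphase-promoting complex, and topoisomerase IIα, which untangles sister chromatids.
Cdk1, chr10:69352913-69353072, minus strand: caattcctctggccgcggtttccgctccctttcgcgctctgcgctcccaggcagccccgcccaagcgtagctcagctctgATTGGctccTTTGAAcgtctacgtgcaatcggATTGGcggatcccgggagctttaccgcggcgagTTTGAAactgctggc
Cdc20, chr4:118437344-118437503, minus strand: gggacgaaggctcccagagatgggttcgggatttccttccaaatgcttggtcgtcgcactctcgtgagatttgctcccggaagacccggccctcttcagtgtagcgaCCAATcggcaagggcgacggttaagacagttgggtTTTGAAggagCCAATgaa
Top2a, chr11:99024190-99024349, minus strand: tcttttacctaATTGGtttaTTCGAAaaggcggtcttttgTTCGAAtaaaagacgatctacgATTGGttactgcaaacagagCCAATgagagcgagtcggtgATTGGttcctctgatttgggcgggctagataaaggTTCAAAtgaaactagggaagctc
Mcm5 and Mcm6 held CCAAT and E2F letters and no CHR letters in these stretches, whereas Cdk1, Cdc20 and Top2a held CCAAT and CHR letters and no E2F letters. Mcm2 held the CHR letters alone in this stretch, and CCAAT letters farther upstream (first base at -175). It was the member called lower in labelled mutants, a call that did not hold under every alternative. A link between promoter letters and differences in level was not tested. The contrast does not hold for all members. Of the mitotic members not printed, Aurka, Birc5, Cenpa, Nusap1 and Plk1, among others, held no CHR letters in the same stretch. The CHR letters of Aurka, Cenpa and Plk1 lay after the start. Of the S phase members not printed, Ccne1, Mcm3, Pcna, Rrm2, Tk1 and Tyms held no E2F letters there.

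A promoter of 300 bases (250 before and 50 after the start) was found for 26 of the 33 members, 10 of S phase and 16 of mitosis. With both strands searched over that window, CHR letters were present in 13 of 16 mitotic members (81.2%) and 2 of 10 S phase members (20.0%), against 21.7% of 27025 genes in the table. E2F letters were present in 4 of 10 S phase members (40.0%) and 0 of 16 mitotic members, against 5.79% of all. CCAAT was present in 87.5% of the mitotic and 70.0% of the S phase members, against 41.1% of all. These shares describe letters and were not tested.

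Few of these genes differed between the genotypes. Of the 26 tested, 0 rose and 1 fell at an adjusted p under 0.05 (3.85%), while 23.2% of all 9961 genes tested passed in either direction, 10.6% as higher and 12.6% as lower in labelled mutants. Higher calls made up 45.7% of all calls, and 26.9% when arrays were scaled to a common median. The gene that fell was Mcm2. Each difference is the log2 intensity of labelled mutants less that of labelled controls, ± SE, from a limma fit over all 16641 probes tested with Benjamini-Hochberg adjustment, with n = 10 and n = 11. The median difference of the members was 0.08 against 0.01 over all genes tested, and their median absolute difference was 0.08 against 0.13. The 95% intervals of the 26 members, each by its tested probe of highest mean, lay between -0.43 and 0.51 log2, or 0.744-fold and 1.42-fold. Each interval holds for its own probe and not for all members jointly. Some further probes of members had wider intervals, such as those of Top2a (-0.39 to 0.71) and Mcm6 (-0.54 to 0.48). At an unadjusted p under 0.05, 2 members passed, Mcm2 and Nusap1, against 34.4% of all genes tested. In no member did the arrays of the genotypes separate without overlap, as they did in 4.4% of all genes tested.

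**Figure D1:**
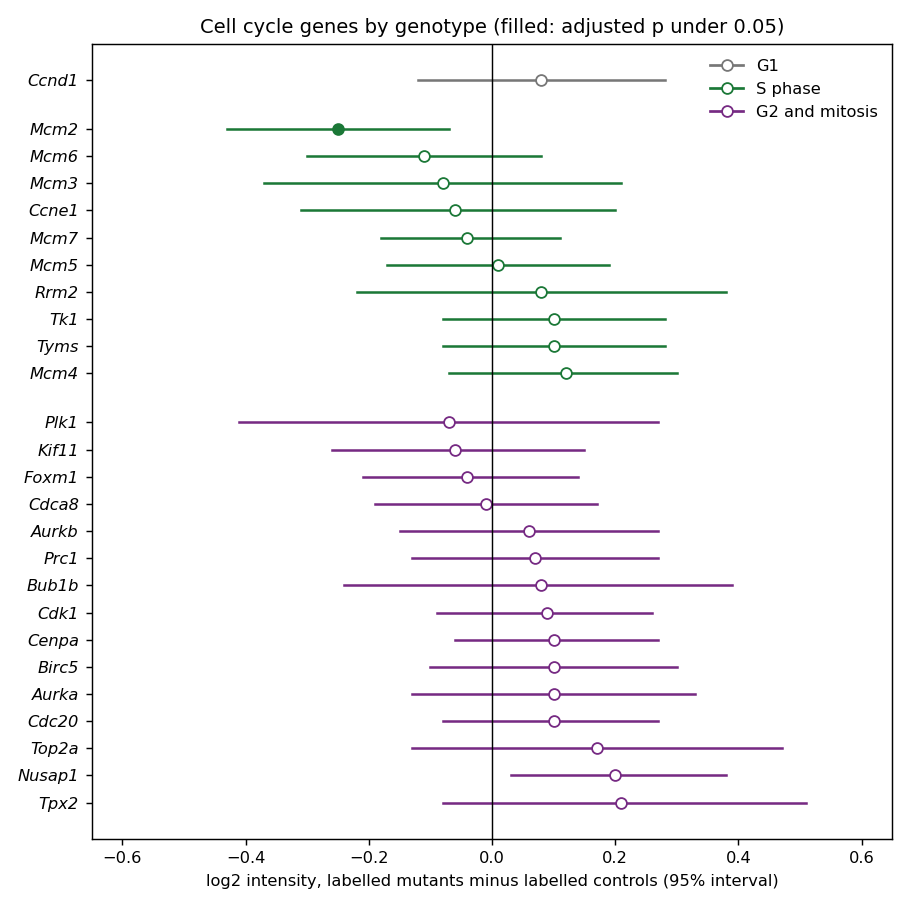
Difference in log2 intensity between 10 labelled mutants and 11 labelled controls for the 26 cell cycle genes tested, in 3 classes, each point a fitted difference with its 95% interval. Mcm2 (-0.25) is the filled point, the only member past an adjusted p under 0.05; the intervals of the others include 0 except that of Nusap1 (0.03 to 0.38).

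The SD within genotypes ran from 0.15 log2 in Mcm7 to 0.40 in Plk1 with a median of 0.22, against a median of 0.21 over all genes tested. Precision is limited by the number of arrays. Between 14596 and 16085 of 45281 probes were detected on an array (detection p under 0.01), and the raw median intensity ran from 56.6 to 79.7. Some libraries stood apart in single genes that mark other organs. The colon gene Car1 was detected in 6 labelled mutants (4 and 6 to 10) and in 0 labelled controls, the liver gene Ahsg was above 8 log2 in labelled controls 8, 9 and 11, and the pancreatic gene Prss2 was above 7 in labelled mutants 2 and 7. These arrays are called the Car1, Ahsg and Prss2 libraries after that gene alone: Aqp8 and Slc37a2 of the colon list fell in labelled mutants, labelled mutant 6 had a mean over the colon list of -0.04 centred log2 although Car1 was detected in it, and labelled controls 3 and 9 had means over the pancreatic list of 1.94 and 2.08, so the fit without the Prss2 libraries does not leave out all libraries with pancreatic mRNA. The first principal component of the deviations from the genotype means held 32.3% of their variance, with 6 labelled controls (1 to 4, 7 and 9) and 4 labelled mutants (1, 2, 6 and 7) below 0. Calls that were lost within or without these sets are given beside the gene.

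Cyclin D1, encoded by Ccnd1, links growth signals to the G1 kinases. It read 10.13 to 10.63 log2 intensity in labelled controls (median 10.38) and 9.95 to 10.93 in labelled mutants (median 10.50), so the labelled mutants spanned the whole range of the controls. The difference was 0.08 ± 0.10 (adjusted p = 0.634). Its 2 further probes differed by 0.07 and -0.01, and neither passed.

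Mcm2 encodes a subunit of the hexameric Mcm2-7 helicase, which is loaded at replication origins in G1 and unwinds DNA in S phase. It read 7.91 to 8.41 log2 intensity in labelled controls (median 8.16) and 7.61 to 8.35 in labelled mutants (median 7.93). The ranges overlapped, and labelled mutant 10, at the top of its group, lay above most labelled controls, while labelled mutants 1 and 7 were the lowest arrays. Mcm2 fell by 0.25 ± 0.08 log2, or 1.19-fold (adjusted p = 0.0384). This call did not hold when each array was scaled to a common median (-0.32, adjusted p = 0.102), without the 3 Ahsg libraries (-0.21, adjusted p = 0.131), without the 2 Prss2 libraries (-0.21, adjusted p = 0.103) or within either set of arrays on the first component (-0.25 and -0.31, adjusted p = 0.191 and 0.0869). Leaving out 1 array ended it in 11 of 21 cases, with differences from -0.25 to -0.21 there: labelled control 1, 3, 5, 8, 10 or 11, or labelled mutant 1, 5, 7, 8 or 9. Only 1 Mcm2 probe is named on the array.

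The other helicase subunits did not pass. Mcm6 differed by -0.11 ± 0.09, Mcm3 by -0.08 ± 0.14, Mcm7 by -0.04 ± 0.07, Mcm5 by 0.01 ± 0.09 and Mcm4 by 0.12 ± 0.09, with adjusted p from 0.419 to 0.965. Mcm5 shows the overlap: it read 9.78 to 10.36 in labelled controls (median 9.97) and 9.73 to 10.43 in labelled mutants (median 10.01). In Mcm2, Mcm3, Mcm4, Mcm5, Mcm6 and Mcm7 alike, labelled mutant 10 was the highest labelled mutant. Labelled mutant 1 was the lowest labelled mutant in Mcm2, Mcm3, Mcm4 and Mcm6.

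Cyclin E1, encoded by Ccne1, activates Cdk2 at the entry into S phase. It read 5.17 to 6.20 log2 intensity in labelled controls (median 5.80) and 5.45 to 6.45 in labelled mutants (median 5.63). Labelled mutant 6 was well above the other 9 labelled mutants, which reached 5.84, and the difference was -0.06 ± 0.12 (adjusted p = 0.81). The enzymes of deoxynucleotide supply leaned the other way without passing: ribonucleotide reductase subunit M2 (Rrm2, 0.08 ± 0.14), thymidine kinase 1 (Tk1, 0.10 ± 0.09) and thymidylate synthase (Tyms, 0.10 ± 0.09), with adjusted p from 0.48 to 0.767. Tyms had 2 further tested probes, of which 1 had the opposite sign (-0.11).

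Pcna encodes the sliding clamp of the replicative polymerases. Its probe was too dim to enter the test: it was detected in 0 labelled controls and in 4 labelled mutants (2, 3, 4 and 5). The labelled controls read 4.60 ± 0.16 log2 intensity (SD, n = 11), the labelled mutants 4.98 ± 0.27 (SD, n = 10), and the ranges, 4.40 to 4.97 and 4.62 to 5.36, overlapped. Both means lay under the lowest signal of detected probes, so no fold is given. With no filter on dim probes Pcna was called higher (limma adjusted p = 0.00943), a call that rests on signals near background, and Mcm2 missed the threshold there (adjusted p = 0.074).

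Across the 10 S phase genes tested, 0 rose, 1 fell and 9 did not pass. Of the fitted differences 5 were above 0 and 5 below, with a median of -0.01 and a range from -0.25 (Mcm2) to 0.12 (Mcm4). With median scaling the median was -0.08, against -0.04 over all genes tested, and without the 6 Car1 libraries it was -0.12, against -0.02.

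Among the mitotic genes, 0 of 15 tested rose, 0 fell and 15 did not pass, and 1 had an unadjusted p under 0.05. Of the differences 11 were above 0 and 4 below, with a median of 0.09 and a range from -0.07 (Plk1) to 0.21 (Tpx2). With median scaling the median was 0.00, against -0.04 over all genes tested. It was 0.02 without the Car1 libraries, against -0.02, and 0.02 in the arrays above 0 on the first component, against 0.01. The gene with the smallest p was Nusap1, which encodes a protein that binds and bundles spindle microtubules. It read 8.29 to 8.90 log2 intensity in labelled controls (median 8.75) and 8.60 to 9.25 in labelled mutants (median 8.87). Labelled mutants 4, 5, 7 and 10 lay above every labelled control, and labelled controls 7 and 9 lay below every labelled mutant. The difference was 0.20 ± 0.08 (adjusted p = 0.0976). Without labelled mutant 1 it passed (0.24, adjusted p = 0.046).

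Cdk1, the kinase that starts mitosis, read 8.95 to 9.36 log2 intensity in labelled controls (median 9.15) and 8.84 to 9.56 in labelled mutants (median 9.32), with the lowest and the highest array of all in the mutant group. Its difference was 0.09 ± 0.08 (adjusted p = 0.548). Foxm1, the transcription factor of many G2 and mitotic genes, differed by -0.04 ± 0.08 (adjusted p = 0.834).

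Top2a, shown above for its promoter, had the widest range among labelled controls, from 7.16 to 8.71 log2 intensity (median 8.27), with labelled control 9 lowest and labelled control 2 next (7.85). Labelled mutants ran from 8.09 to 8.91 (median 8.38), with labelled mutant 10 highest. The groups overlapped, and the difference was 0.17 ± 0.14 (adjusted p = 0.464). Tpx2, which activates Aurora A on the spindle, had the largest fitted difference of the mitotic genes, 0.21 ± 0.14 (adjusted p = 0.341), on a dim probe that was detected in 10 of 11 labelled controls and 10 of 10 labelled mutants.

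The mitotic kinases stood near 0 as well. Aurora kinase A (Aurka) differed by 0.10 ± 0.11 and Aurora kinase B (Aurkb) by 0.06 ± 0.10. The partners of Aurora B in the chromosomal passenger complex, survivin (Birc5) and borealin (Cdca8), differed by 0.10 ± 0.10 and -0.01 ± 0.09. Adjusted p for these 4 genes ran from 0.527 to 0.948.

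Plk1, the Polo-like kinase of spindle assembly and cytokinesis, had the largest spread of the members. It read 8.17 to 9.24 log2 intensity in labelled controls (median 9.10) and 8.22 to 9.45 in labelled mutants (median 8.73). Labelled controls 5, 6, 8 and 10 and labelled mutants 3, 4, 7, 9 and 10 were the low arrays, so the division ran through both genotypes. The difference between genotypes was -0.07 ± 0.16 (adjusted p = 0.837). Bub1b, which encodes the checkpoint protein BubR1, also varied widely, but on other lines: labelled control 8, low in Plk1, was the highest array (9.47), and labelled control 9 (8.15) and labelled mutant 2 (8.17) were the lowest. Bub1b differed by 0.08 ± 0.15 between genotypes, and its second probe by 0.14 ± 0.09.

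Genes of chromosome attachment and exit from mitosis complete the set. Cdc20 read 9.16 to 9.74 log2 intensity in labelled controls (median 9.40) and 9.14 to 9.89 in labelled mutants (median 9.50), a range that takes in that of the controls, and differed by 0.10 ± 0.08 (adjusted p = 0.481). Cenpa, the histone H3 variant of the centromere, differed by 0.10 ± 0.08. The kinesin Kif11, which pushes spindle poles apart, differed by -0.06 ± 0.10, and Prc1, which bundles the microtubules of the midzone, by 0.07 ± 0.10. No further probe of any mitotic member passed. Over all 45 tested probes of the 26 genes, 1 passed, that of Mcm2, against 20.9% of all probes tested.

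For 6 mitotic genes there was no value to test. The 6 probes of Bub1, Ccna2, Ccnb2, Kif20a and Ube2c were not detected on any of the 21 arrays, with raw intensities from 44.4 to 75.4. Ccnb1 has no probe that the annotation names with that symbol alone, and the same holds for Mki67, the proliferation marker Ki-67. As Cdk1, Cdc20 and Birc5, which are transcribed in the same phase, were detected on every array, the missing signal of these probes is not read as absence of the mRNA.

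**Figure D2:**
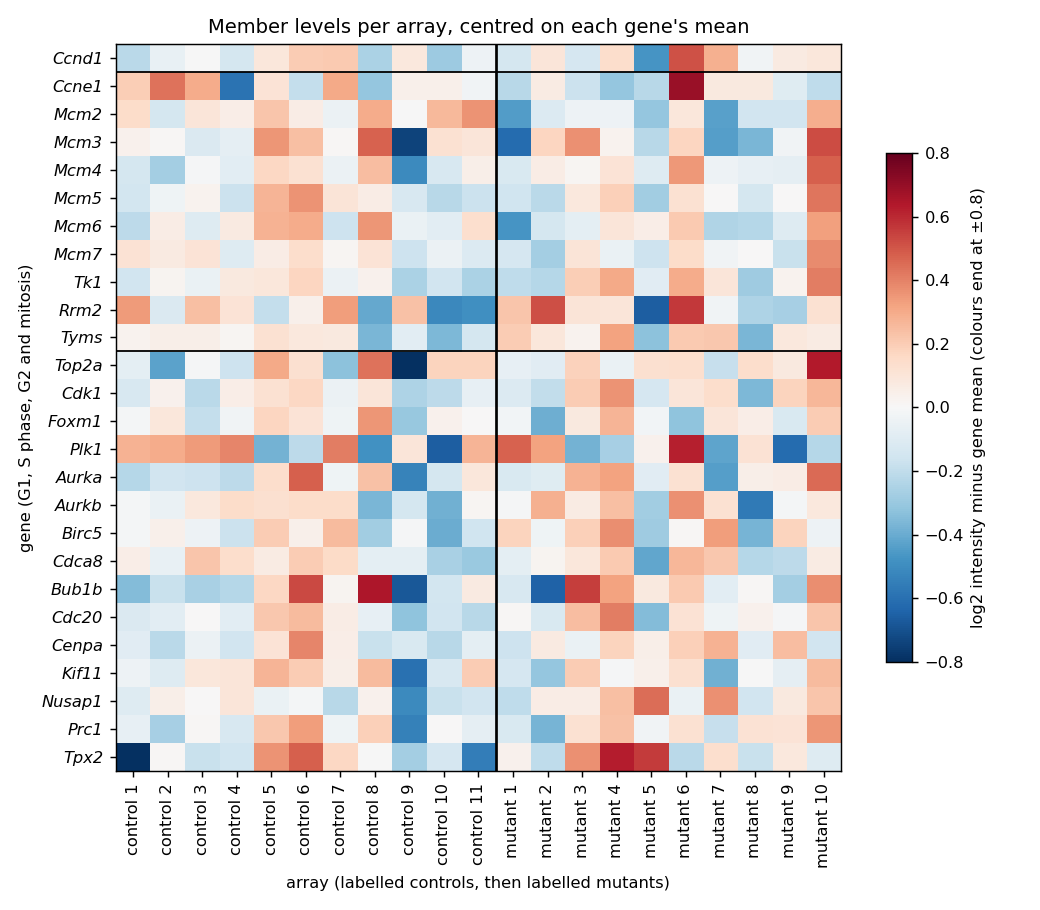
Log2 intensity of the 26 genes tested on each of 21 arrays, minus each gene's mean over all arrays, with labelled controls left of the vertical line and Ccnd1, S phase and mitotic genes in 3 blocks from top to bottom. Labelled controls 5 and 6 and labelled mutants 3, 4, 6 and 10 are mostly red. Labelled controls 9 and 10 and labelled mutant 1 are mostly blue.

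Embryos of the same genotype differed from each other in these genes as a group. Labelled control 9 lay below the gene mean in 22 of 26 members and was the lowest of all arrays in 8 of them. Labelled controls 5 and 6 lay above the gene mean in 23 members each, as did labelled mutant 6, and labelled mutant 10 did in 21. Labelled mutants 6 and 10 were the highest arrays in 6 and 7 members. Labelled control 9 was also one of the 3 Ahsg libraries and had the lowest mean of the mesenchyme markers (-0.51 centred log2, against -0.19 to 0.15 in the other labelled controls). The part of these markers in its low cell cycle values was not tested.

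The mean centred log2 level over the 10 S phase genes ran from -0.17 to 0.15 in labelled controls (median 0.02) and from -0.23 to 0.28 in labelled mutants (median -0.04). Over the 15 mitotic genes it ran from -0.36 to 0.22 (median -0.03) and from -0.11 to 0.23 (median -0.01). Both measures overlapped between genotypes over most of their range. The S phase mean minus the mitotic mean averaged 0.04 ± 0.08 in the labelled controls (SD, n = 11) against -0.05 ± 0.13 in the labelled mutants (SD, n = 10), which differ by -0.09. It ran from -0.08 to 0.19 and from -0.21 to 0.16, so the groups overlapped here too. Labelled mutants 2, 6 and 10 had S phase means above their mitotic means, and the other 7 labelled mutants had them below. Labelled controls 4, 6, 8 and 11 had S phase means below their mitotic means, and the other labelled controls had them above. Without the 2 genes of largest difference in each list the difference was -0.05. A mean over chosen genes was given no test.

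**Figure D3:**
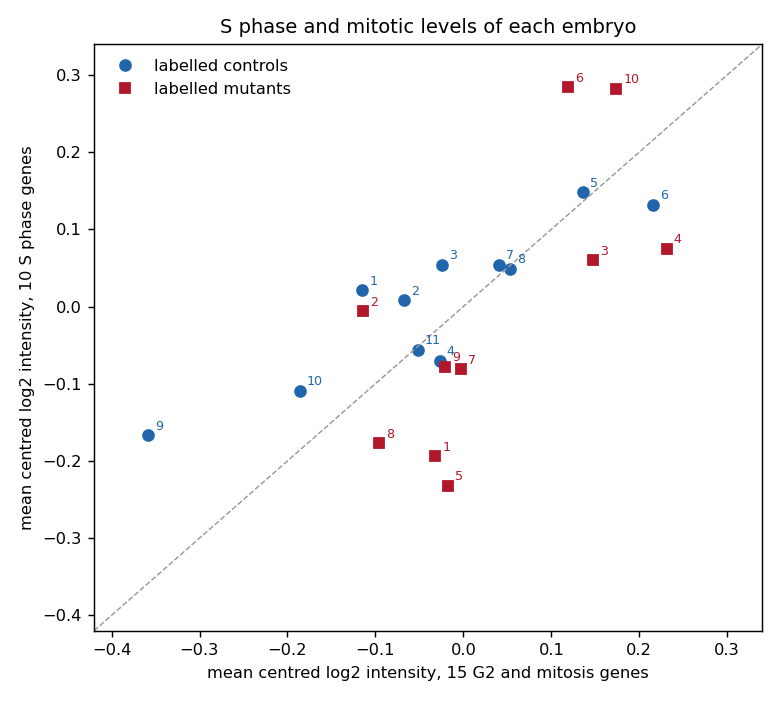
Mean centred log2 intensity over 10 S phase genes against that over 15 mitotic genes, 1 point per embryo with its replicate number, and the line of equality dashed. Labelled mutants 6 and 10 lie highest on the S phase axis (0.28), labelled control 9 lies lowest on the mitotic axis (-0.36), and the genotypes are mixed along the diagonal. More labelled controls than labelled mutants lie above the dashed line.

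Whether S phase and mitotic mRNAs moved together between embryos was tested for 3 gene pairs in each genotype, 6 relations in all, with two-sided permutation tests. Mcm5 and Cdk1 were positively correlated in labelled mutants (Pearson r = 0.81, permutation p = 0.00489, adjusted 0.0293; Spearman rho = 0.83, permutation p = 0.00471, adjusted 0.0283; n = 10). Without the 2 arrays farthest from the median of Mcm5, r was 0.87. In labelled controls r was 0.66 (permutation p = 0.0303, adjusted 0.0724; rho = 0.56, permutation p = 0.0755, adjusted 0.151; n = 11), and it was 0.30 without the 2 farthest arrays, so it rested on them. Within the 6 labelled mutants above 0 on the first component r was 0.77, and within the 6 labelled controls below 0 it was -0.05; the other sides hold too few arrays. The difference between the genotypes in r was not tested. Pairs of genes outside the cell cycle were not compared, so it is not known whether such an r is particular to these genes.

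The pair within S phase, Mcm5 and Mcm6, gave r = 0.55 in labelled controls (permutation p = 0.0805, adjusted 0.121; rho = 0.35, permutation p = 0.298, adjusted 0.409; n = 11) and r = 0.66 in labelled mutants (permutation p = 0.0362, adjusted 0.0724; rho = 0.65, permutation p = 0.0485, adjusted 0.145; n = 10). Without the 2 farthest arrays these were 0.12 and 0.75, and within the same sets of 6 controls and 6 mutants -0.31 and 0.68. The mitotic pair, Cdk1 and Cenpa, gave r = 0.48 (permutation p = 0.134, adjusted 0.161; rho = 0.32, permutation p = 0.341, adjusted 0.409; n = 11) and r = 0.35 (permutation p = 0.319, adjusted 0.319; rho = 0.18, permutation p = 0.632, adjusted 0.632; n = 10). Without the 2 farthest arrays these were 0.16 and 0.25, and within those sets -0.32 and 0.31. The 4 relations within a phase did not pass after adjustment.

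Further genes of the same phases were taken from wider lists. Of 40 further genes of the G1/S transition and DNA replication tested, 1 rose, 0 fell and 39 did not pass (2.5%, against 23.2% of all genes tested), with a median difference of 0.06. With median scaling 0 rose and 1 fell, with the first component as a block or without labelled mutant 5 or 8 there were 3 that rose, and without labelled mutant 10 there were 0. In the fit over all arrays the gene that rose was Uhrf1, which maintains DNA methylation behind the replication fork (0.35 ± 0.11, adjusted p = 0.0269). Of 49 further genes of G2 phase and mitosis tested, 3 rose, 0 fell and 46 did not pass (6.12%, against 23.2%), with a median difference of 0.09. The counts were 0 that rose and 1 that fell without the Car1 libraries, 6 and 1 with the first component as a block, and 5 and 0 without labelled mutant 5. The 3 that rose over all arrays were the midzone kinesin gene Kif23 (0.51 ± 0.14, adjusted p = 0.00807), Mybl2, which encodes the B-Myb partner of the complex that activates mitotic genes (0.33 ± 0.09, adjusted p = 0.012), and the centromere protein gene Cenpk (0.33 ± 0.10, adjusted p = 0.0235).

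Kif23 read 8.09 to 9.24 log2 intensity in labelled controls (median 8.70) and 8.82 to 9.63 in labelled mutants (median 9.21), so that labelled controls 2, 3, 5, 10 and 11 fell within the range of the labelled mutants. Of its 2 further tested probes, the brighter differed by 0.23 ± 0.10 and the dimmer by 0.03 ± 0.12, and neither passed. None of these 4 genes passed when arrays were scaled to a common median (Uhrf1 0.25, Kif23 0.42, Mybl2 0.27 and Cenpk 0.30; adjusted p = 0.322, 0.107, 0.208 and 0.117). None passed without the 6 Car1 libraries either (0.33, 0.49, 0.16 and 0.33; adjusted p = 0.191, 0.125, 0.41 and 0.217), a fit that leaves 4 labelled mutants. Uhrf1 also lost its call without labelled mutant 10 (0.30, adjusted p = 0.0518) and with the replicate number as a block (0.35, adjusted p = 0.0569). With no filter on dim probes Uhrf1 (0.35, adjusted p = 0.063) and Cenpk (0.33, adjusted p = 0.0526) did not pass. In the arrays above 0 on the first component none of the 4 passed (Uhrf1 0.21, Kif23 0.39, Mybl2 0.22 and Cenpk 0.31; adjusted p = 0.469, 0.189, 0.319 and 0.198). In those below 0, Kif23 (0.58, adjusted p = 0.0565) and Cenpk (0.30, adjusted p = 0.174) did not pass, and neither did Cenpk without the Ahsg libraries (0.29, adjusted p = 0.0841).

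In a list of inhibitors and related regulators of the cycle, changes went both ways. Of its 14 genes tested, not every one of them a brake, 4 rose, 3 fell and 7 did not pass (50%), against 23.2% of all genes tested. The difference between these shares was not tested. Their median difference was -0.02. Cdkn1c encodes p57, an inhibitor of cyclin-dependent kinases with a known part in growth control of the embryo. It read 13.97 to 14.41 log2 intensity in labelled controls (median 14.14) and 12.82 to 13.23 in labelled mutants (median 12.98), with no overlap. It fell by 1.16 ± 0.07 log2, or 2.24-fold (adjusted p = 3.57e-11).

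Other inhibitors rose. Cdkn2b, which encodes p15 and blocks the cyclin D kinases, read 8.58 to 9.84 in labelled controls (median 8.92) and 9.77 to 10.90 in labelled mutants (median 10.09). Labelled control 4 (9.84) alone reached into the range of the labelled mutants, and the gene rose 2.14-fold (1.10 ± 0.18, adjusted p = 8.7e-05). Btg1, an antiproliferative gene of the BTG family, read 9.92 to 10.34 in labelled controls (median 10.11) and 10.60 to 11.12 in labelled mutants (median 10.69), with no overlap, and rose 1.55-fold (0.63 ± 0.07, adjusted p = 1.8e-07). Its second probe rose by 0.48 ± 0.07.

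Cdkn1a, which encodes p21, the inhibitor induced by p53 and by differentiation, read 9.59 to 10.26 in labelled controls (median 9.89) and 9.88 to 10.87 in labelled mutants (median 10.52). The labelled mutants 6 and 10 (9.95 and 9.88) lay within the control range and the other 8 above it. Labelled mutants 6 and 10 also had the highest S phase means, which was seen only after the values were known. Labelled mutants 3 and 5, the highest in Cdkn1a, had S phase means of 0.06 and -0.23. A relation between Cdkn1a and the S phase mean was not tested. Cdkn1a rose 1.49-fold (0.58 ± 0.11, adjusted p = 5.42e-04), and its 2 further probes rose by 0.48 ± 0.09 and 0.40 ± 0.10. In the arrays below 0 on the first component, which include labelled mutant 6, the difference was 0.39 (adjusted p = 0.105). Outside the rule for naming genes, and named after their values were seen, Fzr1 (0.18 ± 0.06) rose and Gadd45a (-0.33 ± 0.10) and Ccng1 (-0.31 ± 0.08) fell. The further probes of Fzr1 (0.11 and -0.05) and Ccng1 (-0.21 and -0.06) did not pass. Cdkn1b, which encodes p27, had 3 probes and none that passed the detection filter.

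**Figure D4:**
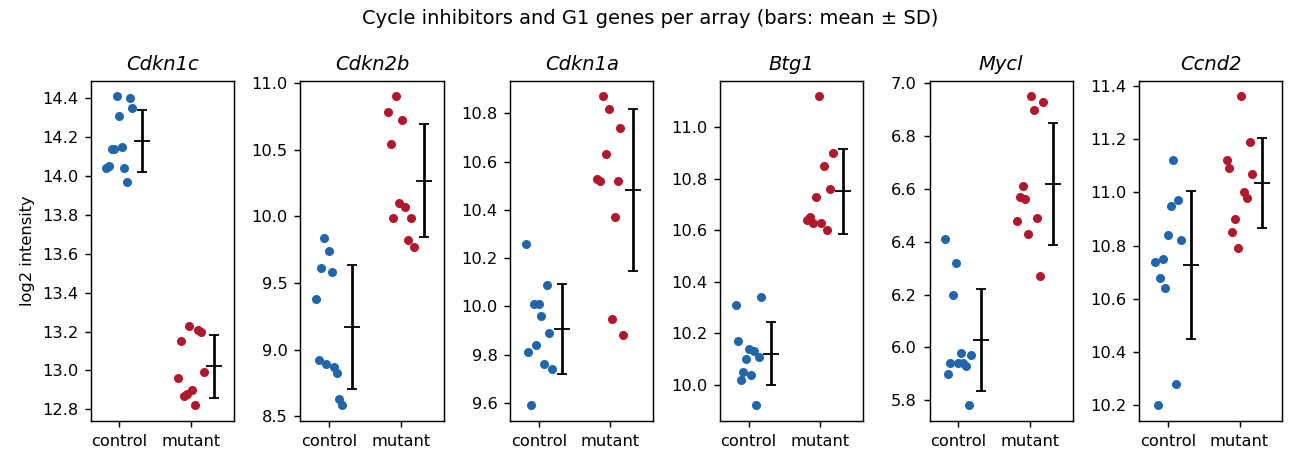
Log2 intensity of 4 inhibitors or brakes of the cycle and 2 genes of G1 drive on each array, with the mean ± SD of each genotype (11 labelled controls, 10 labelled mutants) as bars; each panel has its own scale, which does not start at 0. Cdkn1c and Btg1 separate the genotypes without overlap, whereas in Cdkn1a the labelled mutants 6 and 10 (9.95 and 9.88) lie within the control range.

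Of 7 genes of G1 drive tested, 2 rose, 1 fell and 4 did not pass (42.9%, against 23.2% of all genes tested, a difference in shares that was not tested), with a median difference of 0.04. Mycl, of the Myc family of growth regulators, read 5.78 to 6.41 log2 intensity in labelled controls (median 5.94) and 6.27 to 6.95 in labelled mutants (median 6.57). Labelled controls 1 and 5 reached into the mutant range, and Mycl rose 1.51-fold (0.59 ± 0.09, adjusted p = 3.88e-05). Cyclin D2 (Ccnd2) rose by 0.31 ± 0.10 (adjusted p = 0.0291), and its further probes (0.26 and 0.21) did not pass. The cyclin D kinase gene Cdk4 fell by 0.20 ± 0.07 (adjusted p = 0.0434), and its second probe (-0.13) did not pass.

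The calls of Ccnd2 and Cdk4 were lost with median scaling (0.22 and -0.28, adjusted p = 0.209 and 0.0631) and without the Car1 libraries (0.24 and -0.24, adjusted p = 0.372 and 0.155). Ccnd2 also lost it without the Prss2 libraries (0.31, adjusted p = 0.0608) and in the arrays above 0 on the first component (0.09, adjusted p = 0.694). Cdk4 lost it in the arrays below 0 (-0.13, adjusted p = 0.382) and above 0 (-0.24, adjusted p = 0.191). With no filter on dim probes neither gene passed (Ccnd2 0.31 and Cdk4 -0.20, adjusted p = 0.0636 and 0.0668). The same held with the replicate number as a block (0.32 and -0.19, adjusted p = 0.0534 and 0.105). From the deposited processed values Cdk4 did not pass (-0.21, adjusted p = 0.0685). Leaving out 1 array ended the call of Ccnd2 in 3 cases (labelled control 9, labelled mutant 6 or 9) and that of Cdk4 in 11 (labelled control 2, 3, 4, 5, 6, 7 or 11, labelled mutant 5, 6, 8 or 10). No probe of Myc passed the detection filter.

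Markers of the cells and organs that the tissue could hold moved in part, and their part in the results above was not tested. Of all genes tested, 23.2% passed, 10.6% as higher and 12.6% as lower. The share of a marker list was not tested against these. Of 6 tested markers of intervillus progenitors, 2 rose (Cdca7, 0.27 ± 0.06, and Cd44, 0.25 ± 0.08) and 4 did not pass, among them the stem cell markers Lgr5 (0.04 ± 0.11, adjusted p = 0.857, detected on 9 of 21 arrays) and Olfm4 (0.30 ± 0.18, adjusted p = 0.257). All 6 differences were above 0, with a median of 0.22 against 0.01 over all genes tested. The mean centred level of these 6 genes ran from -0.31 to 0.24 in labelled controls and from -0.05 to 0.21 in labelled mutants. Of 8 enterocyte markers 3 rose, Krt20 (1.47 ± 0.13), Anpep (0.84 ± 0.16) and the microvillus gene Vil1 (0.64 ± 0.09, adjusted p = 9.06e-06), and 1 fell, Rbp2 (-0.32 ± 0.09). Of the 8 differences 3 were above 0 and 5 below, with a median of -0.06. The list means ran from -0.34 to 0.17 in labelled controls and from -0.11 to 0.42 in labelled mutants.

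Of 10 mesenchyme and muscle markers 1 rose (list means -0.51 to 0.15 and -0.17 to 0.30). Of 5 leukocyte markers 3 fell (0.06 to 0.45 and -0.61 to -0.01), and of 4 red cell markers 0 passed (-0.54 to 0.77 and -0.50 to 0.31). Of 4 enteric neuron and glia markers 2 rose and 1 fell (-0.21 to 0.10 and -0.25 to 0.25). Of 8 liver markers 5 fell (0.19 to 1.69 and -1.03 to -0.23), of 8 pancreatic markers 1 fell (-2.64 to 2.08 and -3.03 to 3.32), and of 8 colon markers 4 rose and 2 fell (-0.27 to 0.06 and -0.16 to 0.49). Of the colon list, Car1 (detected in 0 labelled controls and 6 labelled mutants) and 1810065E05Rik (1 and 10) passed the filter through labelled mutants alone. Of the liver list, Itih3 (11 and 2) and F2 (10 and 3) did so through labelled controls. The filter lets in such genes because 1 group is high, so their calls are no support on their own. In leukocyte and liver markers the list means of the genotypes did not overlap, and in the others they did. For single genes, 4.4% of all genes tested did not overlap, and list means of other genes were not compared in this way. Among the markers detected on no array were Alb, Fgb, Apoh and Tat of the liver list, Car4, Hoxb13, Ly6g6c and Fxyd4 of the colon list, Ptprc and Cd3e of the leukocyte list, and, of genes that the small intestine is known to express, Fabp1 and Fabp2.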

How the data were processed

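RNA of 21 arrays was grouped by title into 11 labelled controls and 10 labelled mutants. The deposited raw table holds a linear intensity for each probe on each array and its detection p-value. The submitters' processing notes name GenomeStudio 2009.2. The deposited processed intensity values, background-subtracted and scaled per array, are linear, and each column tracked its raw column; the sources used here do not name their normalisation. They served as an alternative.

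The raw values were background-corrected with normexp on the detection p-values (neqc, offset 16), quantile normalised and put on the log2 scale with limma 3.58.1 under R 4.3.3. The offset shrinks differences of dim probes. Tests covered the 16641 probes with a detection p under 0.01 on 5 or more arrays. The annotation gave 1 symbol to 34885 of 45281 probes, several to 18 and none to 10378, and symbols were updated through RefSeq (GRCm38.p6). The tested probe with the highest mean stood for its gene; probes of different genes were not compared in level. Groups were compared with lmFit and eBayes, genotype being the only term, with Benjamini-Hochberg adjustment. The fit was tested on simulated data with noise drawn apart for each gene. Those data hold no variation shared between genes, and their smallest change was larger than the difference of most members. The simulation therefore does not show whether differences as small as those would be found. Whether the replicates came from separate litters is not given in the labels. Correlations between arrays ran from 0.971 to 0.993.

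The members and lists were chosen with earlier results of these data known. Named were all members; up to 4 changed genes of each further cell cycle list with the largest difference; and Prdm1, Mki67, Cdkn1a, Cdkn1b, Cdkn1c, Ccnd2, Myc, Lgr5, Olfm4 and Vil1 in any case. Permutation tests used 1e+05 draws. Alternatives changed the scaling, the background, the table, the filter, array weights, the replicate block and the arrays included; those on the first component, the cut-offs that set the Car1, Ahsg and Prss2 libraries and the pairing of Cdk1 with Cenpa in place of the undetected Ccnb2 were chosen after seeing the data. Whether same-numbered arrays pair was not settled: 6 of 10 correlations of their deviations exceeded 0.1 (-0.25 to 0.30), and they were not compared with those of differently numbered arrays.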

Additional observations from a re-analysis of the deposited data

Results flagged for a closer look

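Among the 10 labelled mutants, 1 array stood far from the rest in 2 genes. In Ccne1, labelled mutant 6 (6.45 log2 intensity) was separated from the next array by 0.614 of the group's range, and in Top2a labelled mutant 10 (8.91) by 0.549, above Dixon's critical value for 10 arrays. Chance flags about 1 in 20 groups, and 29 sets of values were examined. The group of 11 labelled controls was not examined in this way.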

How the results depend on the processing

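Over 882 values of the 26 members under alternatives, 0 calls reversed, 18 calls were lost, all of them that of Mcm2, 1 was gained (Nusap1), and 45 uncalled values changed sign. The count of members changed and that of S phase genes changed were 0 in place of 1 with median scaling, without the Ahsg or the Prss2 libraries, and within either set of arrays on the first component. With the replicate number as a replicate block, members changed and S phase genes changed were also 0 (Mcm2 -0.23, adjusted p = 0.0689), and 20.1% of all genes tested passed. Whether the numbers pair the arrays is not known. Leaving out 1 array gave 0 to 1 members changed, 0 to 1 S phase genes and 0 to 1 mitotic genes, with medians from -0.04 to 0.01 (S phase) and 0.05 to 0.11 (mitotic). Without background correction, from the deposited processed values, with detection on all arrays, with array weights, without the Car1 libraries and with the first component as a block, Mcm2 remained the only member called. With median scaling 462 genes in place of 1054 were higher and 1253 lower, and the share of all genes called was 12.6% without the Car1 libraries, 13.8% and 12.4% within the sets below and above 0 on the first component and 10.7% with no filter, against 23.2%. Of the other named genes, Cdkn1c, Cdkn2b, Btg1, Mycl and Vil1 kept their calls under every alternative run. With no filter on dim probes Pcna, not tested otherwise, was called higher (adjusted p = 0.00943) and Mcm2 was not called, so that the 1 member changed was another gene in the other direction. The cause of the lost calls was not tested, beyond the fewer arrays in the fits that leave some out. Dim probes limit the account: 6 mitotic genes and Pcna had no tested value, and small differences of the others cannot be resolved with 21 arrays. Chip as a block was not run, since the columns give no chip.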
